A study of Mus musculus with 16 samples.

Results

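The cells described here are the Erythroid cells of E8.5 mouse chimeras, embryos grown from WT blastocysts that had been injected with Stat3 null embryonic stem cells (ESCs). They are the 1773 analysed E8.5 cells that carry the Erythroid label in the authors' table of cells, of 11348 analysed cells at E8.5 and 37841 analysed cells at all stages. A cell was analysed when it passed the authors' quality filter and was not called a doublet, and the label had been transferred by the authors from a reference atlas of mouse gastrulation and early organogenesis. The 725 null cells came from tdTomato-positive sorts and the 1048 WT cells from tdTomato-negative sorts, with 1 further WT-sorted cell left out because it held a tdTomato UMI (a unique molecular identifier, which counts 1 captured RNA molecule).

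The red cells of an E8.5 embryo are primitive erythroid cells, which arise in yolk sac blood islands and enter the circulation while they are still nucleated and dividing. They are known for embryonic globins (Hba-x, Hbb-bh1 and Hbb-y), which are later joined by adult globins, and their program is driven by the transcription factors Gata1, Tal1 and Klf1. STAT3 and its relatives STAT5A and STAT5B are switched on by JAK kinases bound to cytokine receptors, enter the nucleus and bind DNA at sites of the form TTCNNNGAA, and among their common targets are the feedback inhibitors Cish, Socs2 and Socs3 and the kinase Pim1.

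The null cells descend from an ESC line of CD1 background in which a neomycin resistance cassette stands in place of Stat3 exons that encode the SH2 and transactivation domains. The line also carries a histone-linked tdTomato under the CAG promoter, and lines were picked as colonies, so null cells of every embryo share the history of a picked line. The WT cells are those of the CD1 host embryo, without tdTomato, so the line itself and the missing Stat3 cannot be told apart. Embryos were pooled, dissociated, sorted by tdTomato and sequenced on the 10x 3′ platform. At E8.5 the table of cells holds 4 libraries, here called null A, null B, WT A and WT B in the order of their names. No label ties a library name to an embryo pool, and the letters pair nothing. By the labels and the methods the E8.5 libraries of a genotype came from separate pools of embryos, so the p-values below measure the spread between pools. Each pool also gave 1 null and 1 WT library, but which null library shares its embryos with which WT library is not known here, and both possible pairings are given where they change a result. At E9.5 the labels give 4 pools but the methods only 2 embryos, so E9.5 libraries may share an embryo, and p-values that rest on all 4 may be too small.

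The Erythroid cells numbered 594 and 131 in the null libraries (A, then B) and 426 and 622 in the WT libraries, and the median cell held 41137, 38863, 42665 and 25353 UMIs. These 4 libraries gave 29620786 null and 35302297 WT Erythroid UMIs, with 1 barcode shared between libraries (null A and WT B). Xist, the RNA that coats the inactive X chromosome of female cells, stood at 0.488, 1.19 and 0.211 CPM (counts per 1e6, the UMIs of a gene per 1e6 UMIs of the same cells) in null A, null B and WT A, and at 97.5 CPM in WT B. Among Erythroid cells, Xist thus stood high in 1 of the 4 libraries. In the cells of these libraries outside the blood labels it stood at 0.105, 4.73, 0.0492 and 121 CPM in null A, null B, WT A and WT B. The part of female cells in any result was not tested.

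Erythroid cells made up 15.5% and 11.4% of all analysed cells in the null libraries and 16.7% and 16.3% in the WT libraries (exact two-sided permutation p = 0.333, the smallest that 2 against 2 can give). Of Erythroid cells, Blood progenitors and Haematoendothelial progenitors together they were 99.7% and 94.9% against 99.8% and 97.5% (difference −1.33 percentage points, exact p = 0.667, and 1.04 without null B). With null A paired to WT A and null B to WT B this difference was −0.101 and −2.56. With the other pairing it was 2.17 and −4.84. With all 7 blood labels as the whole, a setting added after the data were seen, they were 85.1% and 87.3% against 79.8% and 88.9%, a difference of 1.90 in the other direction (exact p = 1.0). These labels include Chorioallantoic-derived erythroid progenitors, with 2 and 0 cells in the null libraries and 47 and 14 cells in the WT libraries.

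The Erythroid cells stood far above non-blood cells in the label's markers. Hbb-bh1 and Hba-x had a UMI in all 1773 cells, and Klf1, which activates globin and membrane genes, had 1 in 1757 of them (99.1%). Non-blood cells of the same libraries also held Hba-x at 166 to 607 CPM and Hbb-bh1 at 44.3 to 192 CPM. At these levels a globin UMI alone does not mark a cell as Erythroid. Erythroid cells held Hba-x at 64202 to 107686 CPM and Hbb-bh1 at 14252.5 to 23414.3 CPM. Klf1 stood at 186, 198, 220 and 208 CPM in null A, null B, WT A and WT B, against at most 1.80 CPM in the non-blood cells of the same libraries. With all E8.5 libraries summed, the next labels were MEP (112 CPM), Blood progenitors (111 CPM) and Chorioallantoic-derived erythroid progenitors (84.0 CPM). The labels came from expression, so these are descriptions without a test.

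Stat3 itself (chr11:100885098-100939540 in mm10, minus strand) read 5.77 and 2.19 CPM in null A and null B and 16.7 and 18.7 CPM in WT A and WT B. The null libraries lay below both WT libraries, though the difference did not pass the test (log2 fold change −1.93 ± 0.37 SE, adjusted p = 0.194, edgeR quasi-likelihood test with Benjamini-Hochberg adjustment). It passed with DESeq2 (adjusted p = 6.98e-05) and in the edgeR fit with the E9.5 WT libraries described next (adjusted p = 0.00991). Each SE here and below was derived from the edgeR F statistic. The 3′ tags lie towards the end of the transcript and can come from RNA of the altered allele, so this level does not by itself show the deletion. In null-sorted cells with and without a tdTomato UMI, Stat3 stood at 5.93 and 5.39 CPM in null A and at 2.93 and 1.68 CPM in null B.

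Null and WT Erythroid cells were compared on UMI counts summed per library, which asks what E8.5 red cells lacking Stat3 express differently from their host neighbours. Of 10143 genes tested, 9 passed (adjusted p under 0.05 and a log2 fold change beyond 1 in either direction, the call used throughout), 2 higher and 7 lower in null cells. These are 0.0887% of the genes tested. At an unadjusted p under 0.05, 304 genes were higher (3.0%) and 511 lower (5.04%). The null pair lay below the WT pair for 13.5% of genes and above them for 13.3%, which is the background for every statement below that libraries did not overlap. With 2 libraries a genotype the spread is poorly known, so a further fit is quoted that added the 4 E9.5 WT Erythroid libraries to estimate it, although these may not be 4 separate embryos. It called 87 of 9342 genes for the same contrast (0.931%, 21 higher and 66 lower), among them 8 of the 9. On the E8.5 libraries alone DESeq2 called 82 genes (0.808%), all 9 among them, and limma-voom 2 (0.0197%).

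The study blocked its test by embryo pool, and both pairings of null and WT libraries were therefore fitted with edgeR, a setting added after the data were seen. With null A paired to WT A and null B to WT B, 152 genes were called, all 9 among them. With null A paired to WT B and null B to WT A, 0 were called (597 at an unadjusted p under 0.05), and the 9 kept their sign with adjusted p from 0.145 to 0.235. No label says which pairing is that of the pools, so each call between null and WT cells below is one made without that block.

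The widest falls among the called genes were in the shared beta chain of the cytokine receptors for IL-3, GM-CSF and IL-5 and in its neighbour. Csf2rb, the common beta chain (chr15:78325752-78353847, plus strand), stood at 3.54 and 1.19 CPM in the null libraries and 76.5 and 76.6 CPM in the WT libraries (log2 fold change −4.70 ± 0.35, edgeR adjusted p = 0.0323). Csf2rb2, the IL-3-specific beta chain found in mice (chr15:78282507-78305721, minus strand), was held by 5 UMIs in all null cells against 302 in WT cells. Its levels were 0.203 and 0 CPM in the null libraries and 9.39 and 7.58 CPM in the WT libraries (log2 fold change −5.62 ± 0.51, edgeR adjusted p = 0.0248). The WT to null ratio of Csf2rb2 was 50.7, with a 95% interval from counting error alone of 21.5 to 157. These near-identical neighbours can share reads, so the split between them is uncertain.

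Csf2rb was not uniform among WT cells. After each cell was thinned to 10000 UMIs, it was detected in 33.8% of the cells of both WT libraries, and in 2.86% and 2.29% of null cells. In the non-blood cells of the same libraries the detected share was 0.576% at most, at median depths of 17231 to 29552 UMIs. At full depth 54.0% of WT A cells and 47.1% of WT B cells held a UMI, and the cell with the most held 36 in WT A and 29 in WT B.

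**Figure D1:**
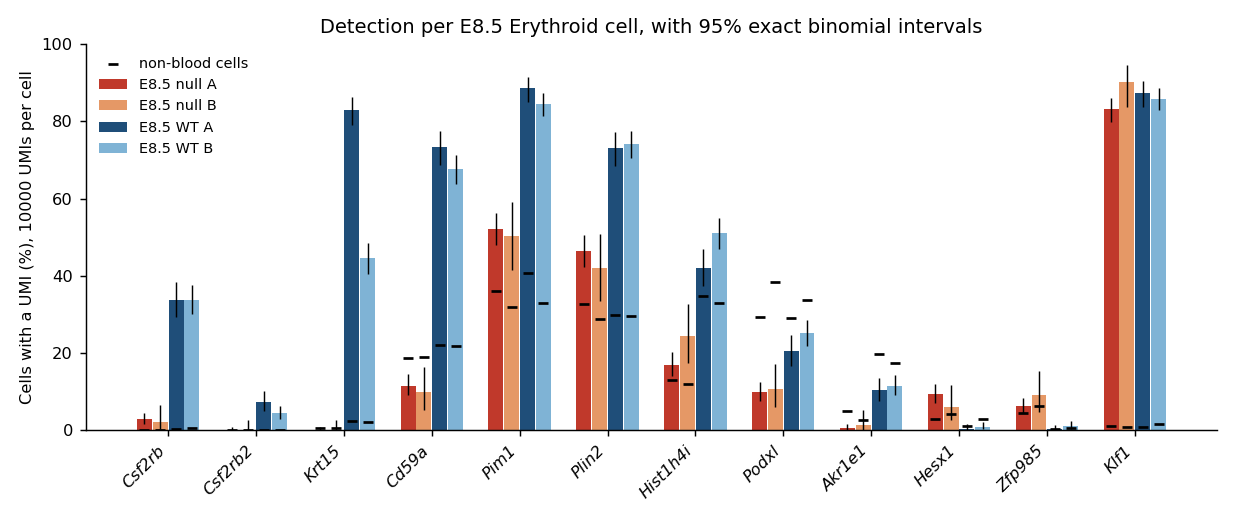
Share of E8.5 Erythroid cells with at least 1 UMI (%, y axis) for 12 genes (x axis) after thinning each cell to 10000 UMIs. Bars are null A, null B, WT A and WT B, lines are 95% exact binomial intervals that cover counting error only, and black dashes give the non-blood cells of the same library. Klf1 is detected in 83.2% to 90.1% of Erythroid cells in every library, while Csf2rb and Krt15 are detected almost only in WT Erythroid cells.

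The other receptor and kinase genes on the list had no call, where edgeR called 0.0887% of all genes tested. Of 20 cytokine receptor and JAK genes 13 were tested, 0 rose, and Csf2rb and Csf2rb2 fell, with a list median log2 fold change of −0.01 beside 0.01 over all genes tested. Epor, the erythropoietin receptor, stood at 95 and 120 CPM in the null libraries and 88.4 and 90.8 CPM in the WT libraries (log2 fold change 0.20 ± 0.13, edgeR adjusted p = 0.788). Jak2, the kinase that serves it, had a log2 fold change of 0.15 ± 0.25 and Jak1 of 0.03 ± 0.22. Il6st (gp130), through which IL-6 and LIF signal to STAT3, read 2.32 and 1.39 CPM in null and 3.38 and 4.28 CPM in WT cells, a difference that did not pass (log2 fold change −0.91 ± 0.34, edgeR adjusted p = 0.528).

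Among the STAT genes, 6 of 7 were tested and the 3 that lie side by side on chromosome 11 were lower in null cells without overlap. Stat5a (chr11:100859351-100885169, plus strand) read 0.773 and 0.795 CPM in null against 2.96 and 4.53 CPM in WT libraries. Stat5b (chr11:100780731-100850724, minus strand) read 5.61 and 4.77 CPM against 12.4 and 15.2 CPM. Neither passed edgeR with the E8.5 libraries alone (adjusted p = 0.0795 and 0.0757), and both passed DESeq2 there (adjusted p = 0.0421 and 0.00276) and edgeR in the fit with the E9.5 WT libraries (adjusted p = 0.00492 and 0.00521).

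The feedback and target genes of STAT signalling were mostly measurable in these cells (27 of 34 tested). Pim1, a survival kinase (chr17:29490753-29496112, plus strand), fell from 270 and 259 CPM in the WT libraries to 99.9 and 92.0 CPM in the null libraries (log2 fold change −1.51 ± 0.16, edgeR adjusted p = 0.0361). It was the only member edgeR called with the E8.5 libraries alone, where DESeq2 called 3 (Pim1, Cish and Ccnd2) and limma-voom 0, while the fit with the E9.5 WT libraries called 5, all lower in null cells (Pim1, Cish, Socs2, Ccnd1 and Ccnd2). The null libraries lay below both WT libraries for 10 of the 27 and above both for 2, with a median log2 fold change of −0.20.

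Cish, which blocks receptor docking by STAT5, stood at 1.22 and 0.994 CPM in null and 8.55 and 5.56 CPM in WT libraries (log2 fold change −2.63 ± 0.40, edgeR adjusted p = 0.0773). Socs2, an inhibitor of the same family, read 3.70 and 2.39 CPM against 6.70 and 7.15 CPM. Ccnd1 and Ccnd2, cyclins of the G1 phase, read 3.99 and 2.19 against 6.65 and 12.2 CPM, and 14.7 and 22.1 against 30.9 and 60.3 CPM. Ccnd3, the abundant D cyclin of red cell precursors, differed little, with 367 and 368 CPM against 413 and 422 CPM. Bcl2l1, a survival factor of late erythroblasts, read 9.15 and 7.95 CPM in null and 15.4 and 13.0 CPM in WT libraries (log2 fold change −0.74 ± 0.24, edgeR adjusted p = 0.438), and its relative Mcl1 had a log2 fold change of −0.04 ± 0.11.

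The promoters of 4 genes hold the STAT form TTCNNNGAA within 250 bases before to 50 after the RefSeq start, and the stretches are shown because these are the genes, among those called and those of the study list below, whose windows hold it. With the E8.5 libraries alone edgeR called Csf2rb2 of the 4, and DESeq2 called Csf2rb2, Cish and Ifi35. Sequences are RefSeq GRCm38.p6, 5′ to 3′ on the gene's strand, with the matches in capitals.
Csf2rb2, chr15:78305672-78305796, minus strand: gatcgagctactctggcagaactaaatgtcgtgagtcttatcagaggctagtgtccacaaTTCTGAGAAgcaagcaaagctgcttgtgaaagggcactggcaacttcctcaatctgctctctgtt
Cish, chr9:107296599-107296708, plus strand: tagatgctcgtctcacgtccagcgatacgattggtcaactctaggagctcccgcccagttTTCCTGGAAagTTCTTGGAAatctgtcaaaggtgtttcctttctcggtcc
Ifi35, chr11:101448359-101448461, plus strand: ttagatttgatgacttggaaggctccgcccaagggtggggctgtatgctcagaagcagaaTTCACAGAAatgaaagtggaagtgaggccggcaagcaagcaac
Socs3, chr11:117969452-117969580, minus strand: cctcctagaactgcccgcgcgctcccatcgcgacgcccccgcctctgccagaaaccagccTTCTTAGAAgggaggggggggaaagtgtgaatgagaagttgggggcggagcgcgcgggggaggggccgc

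Counted from the start base as 0, the match begins at −15 in Csf2rb2, at 0 and 11 in Cish, at 7 in Ifi35 and at −154 in Socs3. On either strand, 2726 of 32851 RefSeq promoter windows of this length hold the form (8.30%). Of the called genes, 6 have a window in the table and 1 holds it, and of the other genes of the study list below, 8 have a window and 3 hold it. The study names Cish and Socs3 as STAT3 targets, so the count for its list was partly fixed beforehand. The GATA forms AGATAA and TGATAA stand in 11.2% and 9.05% of all windows and in those of Akr1e1 (at −162) and Csf2rb2 (at −38). The form CCACACCC, bound by KLF factors, stands in 3.56% of all windows and in those of Csf2rb2 (at −143) and Cd59a. These are letter matches, not binding sites.

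The study list holds 12 genes. Of these, the study's text names Cish, Pim1, Stat5a, Acss1 and Lyrm7 for its path of red cell differentiation in these samples. The text names Socs3 as a STAT3 target in epiblasts, and Stat3 is the deleted gene. Csf2rb, Cd59a, Krt15, Ifi35 and Plin2 are not named in that text. The list was thus chosen at least in part on these cells, and its direction here is not independent evidence. All 12 had null libraries below both WT libraries and a median log2 fold change of −2.22. With the E8.5 libraries alone edgeR called 3 (Csf2rb, Pim1 and Plin2), DESeq2 11 and limma-voom 1, and the fit with the E9.5 WT libraries called 10.

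Plin2, which coats lipid droplets (chr4:86648386-86670060, minus strand), fell from 161 and 158 CPM in WT to 61.1 and 68.8 CPM in null libraries (log2 fold change −1.36 ± 0.13, edgeR adjusted p = 0.0321). Cd59a, which shields cells from the complement attack complex, stood at 13.7 and 7.16 CPM in null and 154 and 122 CPM in WT libraries (log2 fold change −3.63 ± 0.41, edgeR adjusted p = 0.0849). After thinning, Cd59a was detected in 73.2% and 67.7% of WT cells and in 11.6% and 9.92% of null cells, where the share lay below the 18.7% to 22.1% of non-blood cells. Non-blood cells held Cd59a at 25.8 to 38.3 CPM, and how much of the null Erythroid share is free RNA was not tested.

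Krt15, an epithelial keratin, showed the greatest contrast of the list and also the greatest spread between WT libraries. It stood at 0.407 and 0 CPM in the null libraries and at 249 and 91.8 CPM in the WT libraries (log2 fold change −9.03 ± 1.18, edgeR adjusted p = 0.196). All 10 null UMIs lay in 1 cell of null A that had no tdTomato UMI, against 6214 UMIs in WT cells. Thinned detection was 82.9% in WT A and 44.5% in WT B, and the level rose with the globin share of a cell, from 105 CPM in the lowest tertile to 282 CPM in the highest in WT A and from 42.6 to 181 CPM in WT B.

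The remaining genes of the list were of low or middle level. Ifi35, an interferon-induced gene, read 13.5 and 8.94 CPM in null and 52.9 and 37.9 CPM in WT libraries. Acss1, the mitochondrial acetyl-CoA synthetase, read 1.63 and 1.59 CPM against 9.76 and 4.65 CPM. Lyrm7, an assembly factor of respiratory complex III, read 1.30 and 1.39 CPM against 4.70 and 9.54 CPM, and Socs3 read 0.244 and 0.596 CPM against 1.00 and 1.16 CPM. Ifi35, Acss1 and Lyrm7 passed in the fit with the E9.5 WT libraries (adjusted p = 0.0112, 0.0342 and 0.00574) and Socs3, held by 9 null and 38 WT UMIs, did not (adjusted p = 0.327).

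**Figure D2:**
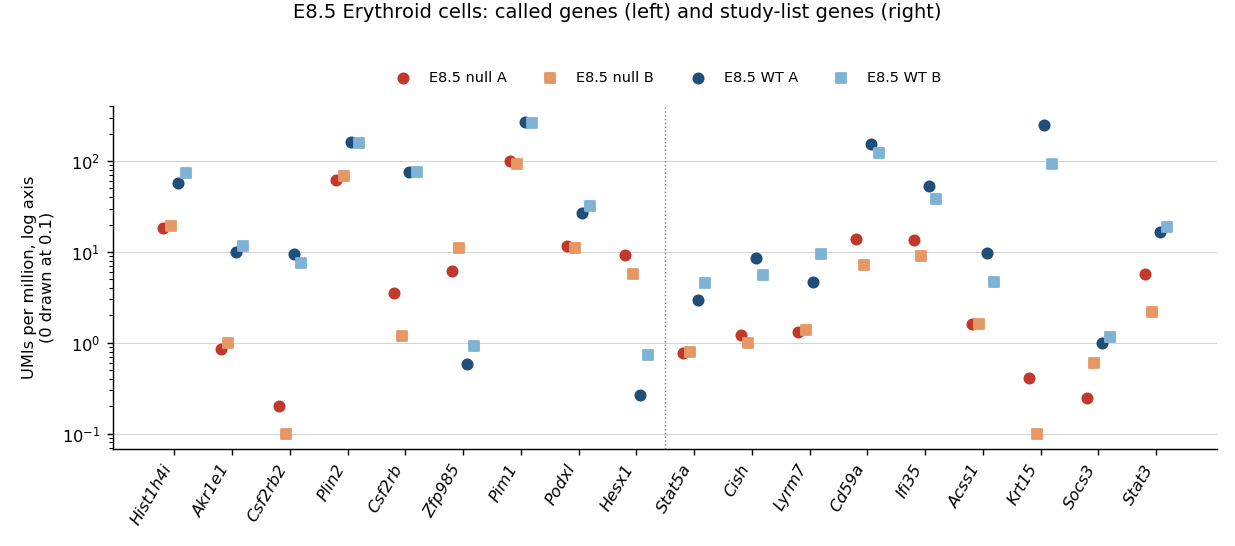
Level of the 9 called genes (left of the dotted line) and the other genes of the study list (right) in E8.5 Erythroid cells. The y axis is CPM on a log scale with 0 drawn at 0.1, and each point is 1 library. Zfp985 and Hesx1 are higher in both null libraries, and every other gene shown is lower.

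The other 5 called genes have no common role. Akr1e1, an aldo-keto reductase (chr13:4590750-4609174, minus strand), fell from 10.0 and 11.5 CPM in WT to 0.854 and 0.994 CPM in null libraries (log2 fold change −3.59 ± 0.25, edgeR adjusted p = 0.00480), while the 5 other tested aldo-keto reductases had no call. Hist1h4i, a replication-dependent histone H4 gene (chr13:22040636-22041362, minus strand), fell from 57.2 and 74.1 to 18.3 and 19.5 CPM (adjusted p = 0.00480), a call lost when any of the E8.5 libraries was left out of the fit with the E9.5 WT libraries (adjusted p up to 0.276). Podxl, a sialomucin of the cell surface (chr6:31519488-31563981, minus strand), fell from 26.7 and 32.2 to 11.6 and 10.9 CPM (adjusted p = 0.0389).

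The 2 genes that rose were Zfp985, a zinc finger gene of a chromosome 4 cluster (chr4:147553277-147585198, plus strand), and Hesx1, a homeobox repressor best known from the forebrain and pituitary (chr14:26994416-27002329, plus strand). Zfp985 stood at 6.14 and 11.1 CPM in null and 0.580 and 0.917 CPM in WT libraries (log2 fold change 3.41 ± 0.36, edgeR adjusted p = 0.0323). Hesx1 stood at 9.19 and 5.76 CPM against 0.264 and 0.734 CPM (log2 fold change 3.98 ± 0.46, edgeR adjusted p = 0.0389). The call of Hesx1 was lost in the fit with the E9.5 WT libraries (adjusted p = 0.435), in which WT D held 9.40 CPM and the other 3 E9.5 libraries at most 0.199 CPM. Zfp985 and Hist1h4i have close copies in their gene families, and how reads were split among these is uncertain.

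Among the 15 genes next in rank outside the study list, with a log2 fold change beyond 1 and libraries that did not overlap, 8 were higher and 7 lower in null cells, with edgeR adjusted p from 0.0554 to 0.0773. Higher in null cells were Hhex, a homeobox gene of early blood and endothelial precursors, with 10.8 and 10.3 CPM against 3.38 and 3.79 CPM in WT libraries, and Rgcc, a regulator of the cell cycle, with 7.36 and 9.94 against 1.85 and 1.41 CPM. In null B Hhex was uneven, with 21.0 CPM in 49 cells with a tdTomato UMI and 3.02 CPM in 82 without. By the tertiles of the globin share given below, it stood at 4.22 CPM in 105 null B cells of the lowest and 37.5 CPM in 23 of the middle. In the lowest tertile null A held 14.9 CPM and the WT libraries 11.6 and 4.08 CPM, so the genotypes overlapped there. Lrmp, a membrane protein of the endoplasmic reticulum, read 6.83 and 2.58 against 0.158 and 0.245 CPM. Cwc22, a splicing factor, read 77.0 and 122 against 40.9 and 48.2 CPM, and Ccnb1ip1, Rbm43, Zfp984 and Zfp990 had log2 fold changes of 1.33, 1.29, 2.61 and 1.47.

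Lower in null cells among these 15 were Stat5b, Grtp1, Mybpc3, Errfi1, Cep250, Cpd and Pde1c. Grtp1, a TBC-domain gene, read 14.9 and 16.1 CPM against 49.0 and 41.5 CPM in WT libraries. Errfi1, a feedback inhibitor of the EGF receptor, read 3.58 and 2.98 against 10.2 and 11.2 CPM. Pde1c, a cyclic nucleotide phosphodiesterase, was held by 4 null and 84 WT UMIs.

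Haemoglobin genes were left out of the test across genes, following the study, and are described per library. They made up 20.4% and 9.21% of a cell's UMIs in the null libraries and 22.4% and 13.4% in the WT libraries (medians over cells). The lowest library was null and the highest WT, but null A lay above WT B, so the genotypes overlapped (null minus WT −3.07 percentage points, exact two-sided permutation p = 0.667, where 2 libraries against 2 can give no less than 0.333). The difference turned to 2.53 without null B and to 1.43 without WT A. Within the pairing of null A with WT A and null B with WT B it was −1.97 and −4.17, and within the other pairing 7.03 and −13.2. The share of cells that the authors' mapping placed at atlas stage E9.0 or later ran the same way, with 53.5%, 9.16%, 77.7% and 17.5%. This share differed by −24.2 and −8.36 percentage points within the first pairing and by 36.0 and −68.5 within the other.

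The embryonic globins also overlapped between the genotypes. Hbb-y made up 77.6% and 46.3% of the UMIs of Hbb-y and Hbb-bh1 in the null libraries, 75.6% and 62.1% in the E8.5 WT libraries, and 85.7% to 88.8% in the 4 E9.5 WT libraries. Hba-x, the embryonic alpha chain, stood at 101378, 64202, 107686 and 79158 CPM. Hba-a1 and Hba-a2 together made up 13.1% and 12.6% of the alpha globin UMIs in null and 17.0% and 11.9% in WT libraries.

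A split between the adult alpha genes differed between the genotypes without overlap. Hba-a2 took 17.8% and 21.9% of the UMIs of Hba-a1 and Hba-a2 in the null libraries and 3.63% and 4.16% in the WT libraries (null minus WT 16 percentage points, exact two-sided permutation p = 0.333, the smallest that 2 against 2 can give). In the E9.5 WT libraries the share was 3.74% to 4.30%. It was the same in null-sorted cells with and without a tdTomato UMI, at 17.8% and 17.7% in null A and 22.3% and 21.7% in null B. The coding sequences of Hba-a1 and Hba-a2 in the annotation are 429 bases long and differ at 1 position (99.8% identity). The parts after the stop codon are 74 and 90 bases long, with 16 differing positions (82.2% identity). That is as many as the lengths differ by, so the bases they share there hold no mismatch. Reads can thus be assigned to either copy by few bases. In non-blood cells Hba-a2 took 32% and 41.7% in null and 21.8% and 22.7% in WT libraries, where globins were 0.0275% to 0.136% of UMIs.

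**Figure D3:**
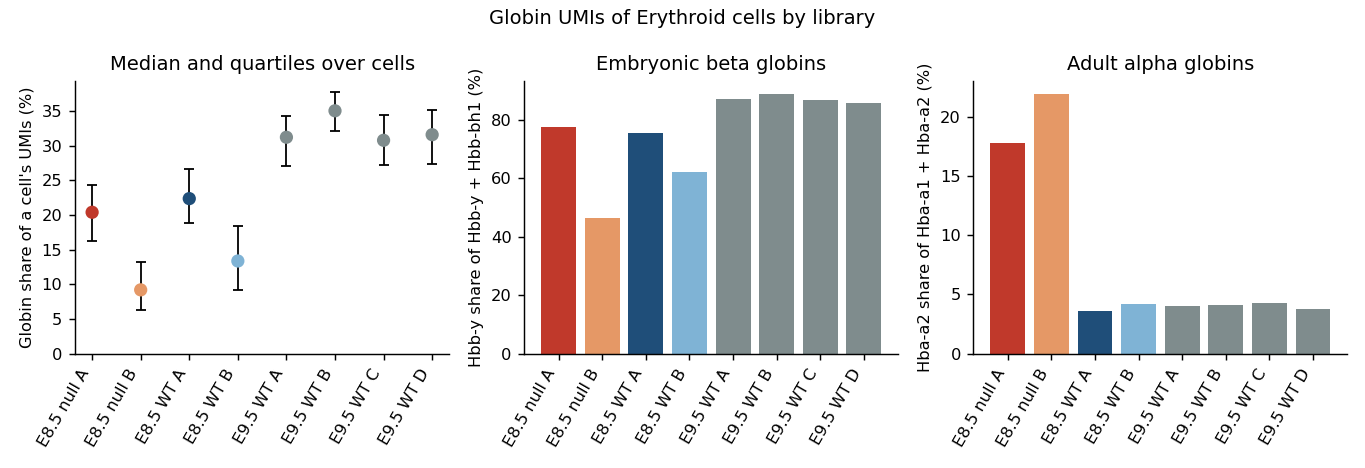
Globin UMIs of Erythroid cells in the 4 E8.5 libraries and the 4 E9.5 WT libraries (x axis). Left, the median globin share of a cell's UMIs (%) with quartiles over cells. Middle and right, the Hbb-y share of Hbb-y and Hbb-bh1 and the Hba-a2 share of Hba-a1 and Hba-a2 (%) in the summed UMIs. The null and WT libraries overlap in the first 2 panels, and in the last the null libraries at 17.8% and 21.9% stand above every WT library.

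Since the libraries differ in globin share, the named genes were set side by side within tertiles of it, bounded at 14.4% and 21.4%. The null and WT libraries of Csf2rb, Plin2 and Krt15 were apart in the lowest and the middle tertile. Csf2rb stood at 6.18 and 1.24 CPM in null and 94.1 and 58.7 CPM in WT libraries in the lowest tertile, and at 2.60 and 0 against 97.6 and 94.4 CPM in the middle tertile. Pim1 stood at 121 and 79.0 against 323 and 225 CPM in the lowest tertile and 90.7 and 128 against 286 and 306 CPM in the middle. The highest tertile holds only 3 cells of null B and is not read for that library. The lowest tertile holds 32 cells of WT A, and the middle tertile 23 cells of null B. In the middle tertile alone, 114 of 8633 genes were called, among them all 9.

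**Figure D4:**
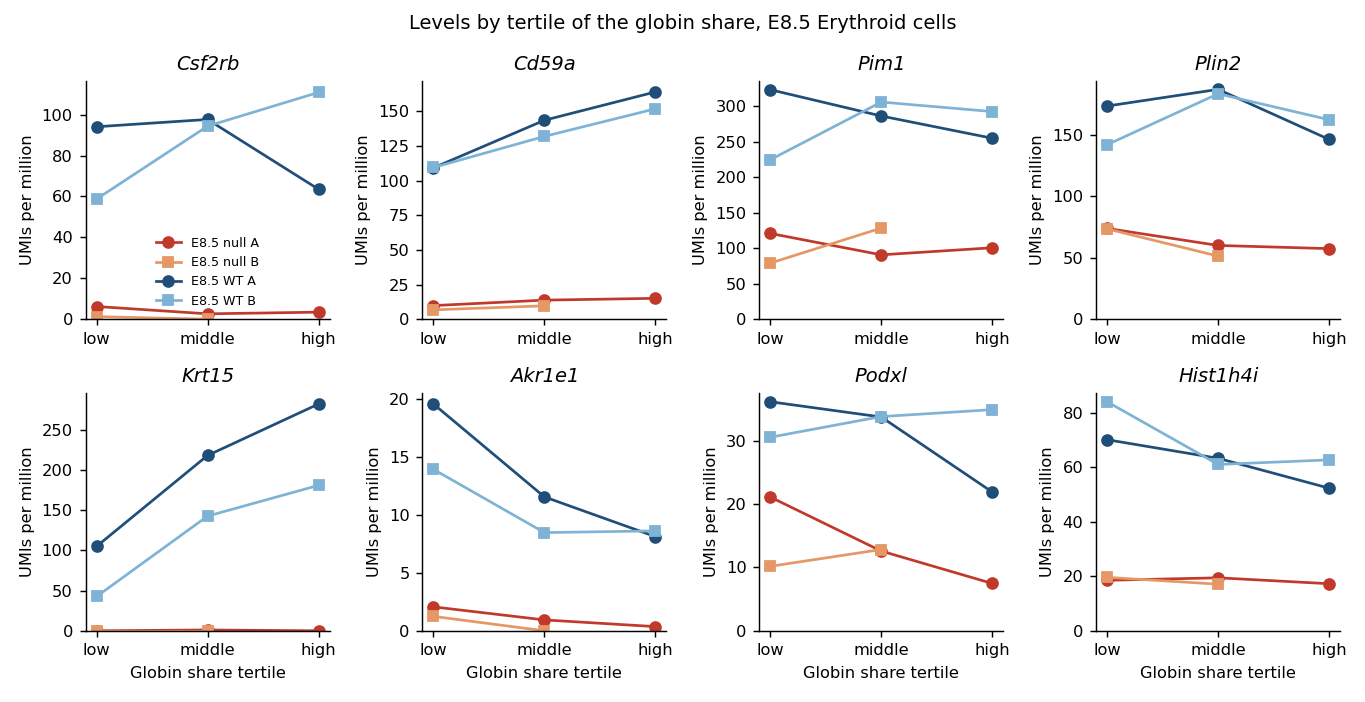
Levels of 8 genes (CPM, y axis, linear) in E8.5 Erythroid cells by tertile of the globin share of a cell (x axis), with 1 line per library. Null B is not drawn for the highest tertile, which holds 3 of its cells. The null lines of all 8 genes lie below the WT lines in the lowest and middle tertiles, and Cd59a and Krt15 rise with the globin share in both WT libraries.

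The core erythroid regulators had 0 calls with edgeR, which called 0.0887% of all genes tested. At that share, 0 calls in a short list do not show that its genes are unchanged. Of 24 erythroid transcription factor genes 21 were tested, with a median log2 fold change of 0.08, and 3 had an unadjusted p under 0.05, all higher in null cells (Lmo2, Myb and Cbfa2t3). DESeq2 called 1, Myb, and limma-voom 0. Klf1 had a log2 fold change of −0.22 ± 0.14 (edgeR adjusted p = 0.793). Zfpm1, the cofactor of Gata1, read 301 and 294 CPM in null and 254 and 282 CPM in WT libraries. Lmo2, a bridging protein of the Tal1 complex, read 171 and 204 against 78.0 and 122 CPM (log2 fold change 0.88 ± 0.14, edgeR adjusted p = 0.0773). Myb, a factor of immature progenitors that falls as red cells mature, read 4.88 and 13.7 against 0.95 and 3.0 CPM (log2 fold change 2.09 ± 0.60, edgeR adjusted p = 0.430).

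The machinery of haem, iron and the red cell membrane also had 0 calls with edgeR, beside the same 0.0887% of all genes tested. All 17 haem synthesis genes were tested, with a median log2 fold change of −0.17, 1 higher and 1 lower in null cells at an unadjusted p under 0.05, and 1 call with DESeq2 and 0 with limma-voom. The enzymes Alad and Cpox had log2 fold changes of −0.17 ± 0.24 and −0.23 ± 0.19. Tmem14c, which serves the transport of porphyrin into mitochondria, read 2048 and 1716 CPM in null and 1098 and 936 CPM in WT libraries (log2 fold change 0.83 ± 0.22, edgeR adjusted p = 0.378), and Fam210b, another mitochondrial protein of red cell iron use, read 83.7 and 76.3 against 181 and 136 CPM (log2 fold change −1.05 ± 0.25, edgeR adjusted p = 0.331, and called in the fit with the E9.5 WT libraries at adjusted p = 0.0461).

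Iron handling and membrane genes gave medians of −0.02 over 21 and −0.12 over 27 tested genes, with 2 and 3 at an unadjusted p under 0.05 and 0 calls by DESeq2 or limma-voom. Tfrc, the transferrin receptor, stood at 204 and 179 CPM in null and 226 and 225 CPM in WT libraries (edgeR adjusted p = 0.746). Slc40a1, the iron exporter ferroportin, stood at 3.62 and 3.58 against 1.27 and 1.28 CPM (log2 fold change 1.47 ± 0.33, edgeR adjusted p = 0.211). Slc4a1, the band 3 anion exchanger of mature red cells, overlapped between the genotypes, with 261, 107, 290 and 172 CPM in null A, null B, WT A and WT B. Cd24a, a surface marker of erythroblasts, read 140 and 132 against 65.4 and 85.4 CPM (log2 fold change 0.83 ± 0.13, edgeR adjusted p = 0.0773).

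Of 9 complement regulator and anchored surface genes 7 were tested and 4 had null libraries below both WT libraries. Beside Cd59a these were its close copy Cd59b (2.81 and 1.59 CPM against 6.44 and 4.65 CPM), Cr1l, which limits complement on rodent red cells (26.3 and 26 against 33.8 and 33.5 CPM), and Cd46. Cd59a was the only one that passed in the fit with the E9.5 WT libraries. Cd55, another complement regulator, read 4.60 and 3.78 CPM in null and 3.32 and 2.57 CPM in WT libraries.

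Among lipid genes 17 of 23 were tested, and Plin2 was called. Fabp5, a fatty acid carrier, read 133 and 263 CPM in null and 411 and 343 CPM in WT libraries (log2 fold change −1.04 ± 0.32, edgeR adjusted p = 0.507). Of the 74 oxidative phosphorylation genes, 28 glycolysis genes and 14 BCL2 family genes tested, 0 were called with edgeR, DESeq2 or limma-voom, and 2, 1 and 2 had an unadjusted p under 0.05. Over all genes tested these methods called 0.0887%, 0.808% and 0.0197%, so 0 calls in lists of this size do not show equal levels. Null libraries lay above both WT libraries for 20 of the 74 oxidative phosphorylation genes and below both for 5, with a median log2 fold change of 0.05. Bpgm, which makes the effector that lowers oxygen affinity of haemoglobin, read 107 and 64.6 CPM in null and 234 and 131 CPM in WT libraries (log2 fold change −1.13 ± 0.54, edgeR adjusted p = 0.724). Of 15 LYRM and complex III assembly genes, Lyrm7 was the only one lower in null cells at an unadjusted p under 0.05, and 3 were higher at that level. Genes of mitochondrial clearance (19 tested), p53 targets (19) and antioxidant genes (26) had 0 edgeR calls, with 0, 1 and 4 at an unadjusted p under 0.05 and 0, 1 and 0 DESeq2 calls. The 16 interferon-type genes tested and the 5 keratins tested had 0 edgeR calls, with 3 and 2 at that level, Krt15 among the keratins, and 2 and 1 DESeq2 calls.

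The summed cell cycle scores overlapped between the genotypes when counted over all UMIs, and the G2 and M score did not overlap when globins were set aside. UMIs of 43 S phase genes came to 34.0 and 44.3 per 10000 thinned UMIs in null and 33.0 and 39.6 in WT libraries (difference 2.85, exact two-sided permutation p = 0.667, and −2.30 without null B or −0.46 without WT A). UMIs of 52 G2 and M phase genes came to 73.0 and 80.8 in null and 63.8 and 75 in WT libraries (difference 7.46, exact p = 0.667). With null A paired to WT A and null B to WT B, the S difference was 1.00 and 4.69. The G2 and M difference was 9.15 and 5.78 there. With the other pairing these were −5.61 and 11.3 for S and −2.03 and 17.0 for G2 and M. Counted per 10000 UMIs outside the globins, a setting added after the data were seen, the second score was 91.7 and 89.8 in null and 82.5 and 86.9 in WT libraries (exact p = 0.333, the smallest possible). Null libraries lay above both WT libraries for 15 of the 52 G2 and M phase genes and below both for 2, and for 3 and 3 of the S phase genes. Of these genes 0 were called with edgeR, DESeq2 or limma-voom, and 1 S phase gene and 4 G2 or M phase genes were higher and 1 S phase gene lower in null cells at an unadjusted p under 0.05. The called shares over all genes tested were 0.0887%, 0.808% and 0.0197%.

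Markers of other cell types were low in the Erythroid cells but not level between libraries. The summed level of 10 neural and epiblast markers was 14.6 and 27.2 CPM in null and 20.6 and 44.7 CPM in WT libraries, against 434 to 489 CPM in non-blood cells, and 5 of the 8 tested had null libraries below WT libraries (Sox2, Pax6, Epcam, Pou3f1 and Otx2). The edgeR fit with the E9.5 WT libraries called 3 of these lower in null cells (Sox2, Epcam and Pou3f1), and DESeq2 on the E8.5 libraries called Sox2 and, of the mesenchyme markers, Twist1. The part of this in the results was not tested beyond the setting given next. For 12 mesenchyme markers the sums were 29.7 and 47.7 CPM against 29.9 and 58.9 CPM, and for 13 visceral endoderm markers 13.4 and 13.5 against 8.34 and 22.9 CPM. For mesenchyme markers 7 of 11 tested had null libraries below WT libraries, and for endoderm markers 0 of 5. Macrophage markers summed to 2.96 to 5.08 CPM with Cd14 and Ctsg at 0 in all 4 libraries, endothelial markers to 8.87 to 14.5 CPM, and megakaryocyte markers to 58.8 and 75.5 CPM in null and 32.1 and 55.2 CPM in WT libraries, led by Itga2b and Nrgn.

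Cells with more than 5 UMIs over 35 endoderm, mesenchyme and neural markers were 32 of 594 in null A (5.39%), 20 of 131 in null B (15.3%), 26 of 426 in WT A (6.10%) and 91 of 622 in WT B (14.6%). The cell with the most held 17 and 15 such UMIs in the null libraries and 43 and 49 in the WT libraries. With these cells left out, a setting added after the data were seen, edgeR called 42 genes, 11 higher and 31 lower, among them all 9.

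The null effect in Erythroid cells was set against that in the non-blood cells of the same 4 libraries, with the library as a block. The difference of the effects passed for 59 of 13194 genes (0.447%), 51 with a lower and 8 with a higher effect in Erythroid cells. In non-blood cells alone, edgeR called 3 of 14164 genes. Pim1 stood at 55.0 and 44.3 CPM in null and 61.0 and 48.6 CPM in WT non-blood cells, and its effects differed by −1.49 ± 0.15 on the log2 scale (edgeR adjusted p = 0.000233). Plin2 stood at 39.6 and 36.9 against 37.5 and 36.1 CPM there, with a difference of −1.52 ± 0.16 (adjusted p = 0.000233). The test covers non-blood cells only, and the other blood labels of E8.5 were not compared.

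Cish, Ifi35, Podxl, Grtp1, Errfi1 and Cpd also had a lower effect in Erythroid cells, by −2.81, −2.03, −1.63, −1.71, −1.63 and −1.65 on the log2 scale. Higher effects were found for Rgcc (2.45), Lrmp (4.63), Itga4, an integrin chain of progenitors (2.06), Lmo2 (1.06), Nrgn (2.24), Olfm1 (1.83), Kcnj5 (3.80) and Hopx (1.28). Itga4 stood at 18.6 and 26.4 CPM in null and 4.27 and 9.91 CPM in WT Erythroid cells. Hopx stood at 12.6 and 48.7 CPM in null and 14.0 and 18.5 CPM in WT Erythroid cells, so null A lay below both WT libraries. In non-blood cells Hopx read 10.0 and 16.9 CPM in null and 24.0 and 23.1 CPM in WT libraries. Of the 51 genes with a lower effect, 30 stood over 5 times higher in WT non-blood than in WT Erythroid cells (Plac8, Rasl11a, Epcam and Cdh2 by p, with Sox4 and Hox genes), and 8 of these 30 were still called without the cells that held non-blood markers. Of the other 21, 18 were still called, and all 8 genes with a higher effect were.

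For the other called genes described next the difference of the effects did not pass, or the gene was rare outside blood. Hist1h4i had a log2 fold change of −1.65 ± 0.09 in non-blood cells (edgeR adjusted p = 0.0100) beside −1.82 ± 0.12 in Erythroid cells. Akr1e1 and Zfp985 had −2.35 ± 0.28 and 3.39 ± 0.34 there beside −3.59 ± 0.25 and 3.41 ± 0.36, and neither difference passed (adjusted p = 0.10 and 1.00). Csf2rb was at most 0.795 CPM in non-blood cells. Stat3 had −1.51 ± 0.19 outside blood and −1.93 ± 0.37 in Erythroid cells.

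**Figure D5:**
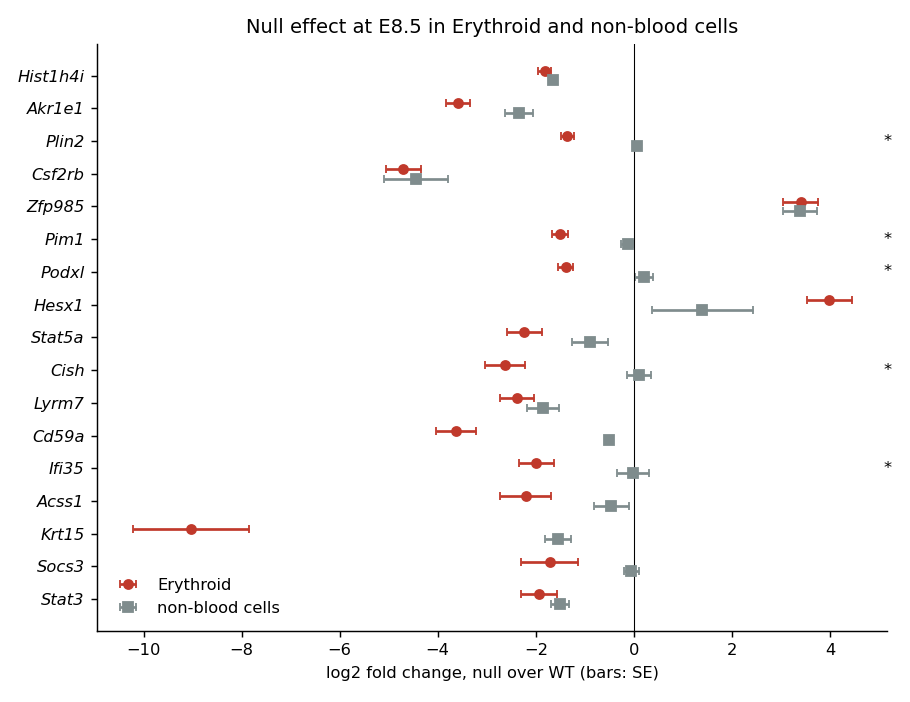
Log2 fold change of null over WT cells at E8.5 (x axis, bars are standard errors derived from the F statistic) for the called genes and the study list (y axis) in Erythroid cells (circles) and non-blood cells of the same libraries (squares), with a vertical line at 0. The called gene Csf2rb2 is not drawn, as it has no fold change in non-blood cells. A star marks the 5 genes whose effects differed with an adjusted p under 0.05 (Plin2, Pim1, Podxl, Cish and Ifi35). Zfp985 and Hist1h4i show near-equal effects in both.

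Blood progenitors, a label of the same lineage, held 0 cells in null A and WT A, 6 in null B and 16 in WT B at E8.5, too few for a fit. The 279 Blood progenitors of E7.5 were used instead, a comparison added after the cell numbers were seen, in which stage and label cannot be told apart. They numbered 154 and 18 in the null libraries of E7.5 and 40 and 67 in the WT libraries. Of 9941 genes 0 passed for a difference of the null effect with edgeR, with 462 at an unadjusted p under 0.05. Pim1 had a log2 fold change of 0.12 in E7.5 Blood progenitors, and the difference of −1.64 from Erythroid cells did not pass (adjusted p = 0.0902). In Blood progenitors alone, 28 of 8194 genes were called, among them Stat5a (−4.17), Stat3 (−2.93), Akr1e1 (−3.58), Lyrm7 (−2.83), Cd59a (−1.82) and Zfp985 (2.16).

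The E8.5 WT cells were placed by comparison with the 380 WT Erythroid cells of E9.5, which shares the E8.5 WT libraries with the comparison above and counts 4 E9.5 libraries that may come from 2 embryos. Of 8798 genes, 393 rose from E8.5 to E9.5 (4.47%) and 92 fell (1.05%), and without E9.5 WT A 271 were called in all. The 6 of smallest p that fell were Bex4, Gapdh, Eno1, Mif, Cpne7 and Pgk1. Bex4 stood at 219 and 257 CPM at E8.5 and at 66.9 to 90.9 CPM at E9.5 (a log2 change of −1.45 ± 0.11 with edgeR, adjusted p = 2.99e-06), and at 141 and 211 CPM in the E8.5 null libraries. Of 27 tested glycolysis genes 7 fell and 3 rose. The 6 of smallest p that rose were Ccdc141, Metrn, Scd2, Nnat, Ppp1r9b and Vim, and Ccdc141 went from 7.65 and 6.73 to 21.8 to 40.6 CPM.

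Of the study list, Stat5a, Acss1 and Socs3 rose in WT cells from E8.5 to E9.5 and Lyrm7 fell. Stat5a stood at 6.71 to 9.16 CPM at E9.5, against 2.96 and 4.53 CPM in WT and 0.773 and 0.795 CPM in null cells at E8.5. Acss1 stood at 21.5 to 31.7 CPM at E9.5. Lyrm7 stood at 0 to 3.05 CPM at E9.5, below both E8.5 WT libraries and around the null level. Csf2rb stood at 24.5 to 52.7 CPM at E9.5 (a log2 fold change of −0.85 ± 0.17 with edgeR, adjusted p = 0.00462), short of the fold limit.

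Of genes near Stat3, 69 within 2 Mb of its centre on chromosome 11 were tested. Null libraries lay below WT libraries for 15 and above them for 9, beside 13.5% and 13.3% of all genes tested, and the median log2 fold change was −0.03. The fit with the E9.5 WT libraries, which called 87 of 9342 genes (0.931%, 66 of them lower), called 4 near Stat3, all lower in null cells. These were Stat5b at −96.6 kb, Stat5a at −40.1 kb, Ifi35 at 541 kb and Fzd2, a Wnt receptor, at 1694 kb. Krt15 lies at −778 kb (chr11:100131758-100135928, minus strand). Stretches of ESC-line DNA that differ from the host around the altered allele cannot be told apart from an effect of Stat3 by these data.

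A tdTomato UMI was found in 414 of 594 cells of null A and 49 of 131 of null B (69.7% and 37.4%), and in 28.1% and 11.5% of cells after thinning. In all other cells of the same libraries, without thinning, the share was 93.5% and 76.7%, and the part of this in the results was not tested beyond the split given next. Levels in null-sorted cells with and without it lay closer to each other than to WT cells for Csf2rb and Pim1. Csf2rb stood at 3.31 and 4.11 CPM in null A and 0.489 and 1.68 CPM in null B, and Pim1 at 93.3 and 116 CPM and at 102 and 85.1 CPM. Not every named gene did so in null B. Cells with and without a tdTomato UMI there held Hhex at 21.0 and 3.02 CPM (43 and 9 UMIs) and Hesx1 at 9.77 and 3.02 CPM (20 and 9 UMIs). Stat5b stood at 9.28 and 1.68 CPM (19 and 5 UMIs). With tdTomato-positive null cells only, edgeR called 44 genes, among them all 9.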

How the data were processed

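Single cells of sorted chimeric embryos were sequenced with 10x 3′ v3 chemistry. The authors deposited a matrix of UMI counts per gene and cell (29453 genes, 41832 cells), made with Cell Ranger on mm10 and an annotation that included tdTomato, and a table of cells with their stage, sort, library, quality, doublet and atlas label. That table also holds, as deposited, each cell's mitochondrial percent, the fraction of atlas neighbours behind its label and a doublet score, and doublets were those the authors called. Of 16 libraries none is tied to a sample title, and 0 columns were left unmatched.

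Counts were summed over the Erythroid cells of each library of over 15 cells. Following the study in part, 8178 genes were not tested (predicted, mitochondrial, ribosomal, haemoglobin, Xist, Tsix, Y-linked and tdTomato). Imprinted genes, which the study also left out, were kept in the tests here. edgeR 4.0.16 (filterByExpr, TMM, robust quasi-likelihood fit, no covariate, where the study blocked by embryo pool) under R 4.3.3 gave p-values adjusted by Benjamini-Hochberg over all genes tested. Each ± value is the absolute log2 fold change over the square root of the F statistic of its test. It is thus not a separately fitted standard error. CPM takes all UMIs of the cells, globins included. Non-blood cells are all analysed E8.5 cells outside the blood and blood progenitor labels. The fit of the difference between their null effect and that of Erythroid cells had the library as a block. The fit of non-blood cells alone had genotype only. Library values were compared by exact two-sided permutation. Alternatives were DESeq2 1.42.0, limma 3.58.1 voom, other filters and scalings, each library left out, and cells thinned to 10000 UMIs. The E7.5 Blood progenitor comparison, the globin-free scores, the share of all 7 blood labels, the blocks for both pairings of libraries and the removal of cells with over 5 non-blood marker UMIs were added after the data were seen. Intervals cover counting error only.

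Genes named are all called genes, the study list, the next 15 by p without overlap, the leading members of each list by level or p, the 6 of smallest p in each direction between stages and the 10 of smallest p in the interaction, and others named with counts were chosen after their values were seen. The members and gene lists were chosen with earlier results of these data known.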

Additional observations from a re-analysis of the deposited data

Results flagged for a closer look

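Hesx1 stood at 9.40 CPM in the E9.5 WT library D, far from the other 3 E9.5 WT libraries (0 to 0.199 CPM). Of 34 groups of 4 libraries looked at in this way 1 was singled out, and chance alone picks about 1 group in 20.

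For the genes given next the null effect differed between Erythroid and non-blood cells of the same E8.5 libraries by the edgeR test of the difference, given here as Erythroid minus non-blood on the log2 scale. Lower effects in Erythroid cells were found for Plin2 (−1.52), Pim1 (−1.49), Podxl (−1.63), Cish (−2.81), Ifi35 (−2.03), Grtp1 (−1.71), Errfi1 (−1.63), Cpd (−1.65) and Nek6, a mitotic kinase (−2.12). The effect was also lower for Plac8 (−2.52), Rasl11a (−2.96), Epcam (−2.16) and Cdh2 (−2.10), which stood at 27.9 to 112 CPM in WT non-blood cells and 3.17 to 8.62 CPM in WT Erythroid cells. Higher effects were found for Rgcc (2.45), Lrmp (4.63) and Itga4 (2.06).

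The Hba-a2 share of the adult alpha globin UMIs was also read in null Erythroid cells that no comparison uses. It was 20.5% over the 19 null cells of E9.5 (4 libraries summed) and 15% in the 17 cells of E7.5 null A, against at most 4.30% in any WT library with over 15 cells.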

How the results depend on the processing

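The 9 genes called between null and WT Erythroid cells kept their sign under all 17 alternatives. Their number was 141 with no filter on low counts, 82 with DESeq2, 2 with limma-voom, 44 with tdTomato-positive null cells only, 114 in the middle tertile of the globin share, 22 after thinning, 42 without cells holding non-blood markers and 87 with the E9.5 WT libraries, 152 and 0 with a replicate block for either pairing of null and WT libraries (A with A, and A with B), and 10 with all genes kept. All 9 were among those called except with no filter (8, without Csf2rb at adjusted p = 0.0652), limma-voom (2), the second pairing (0) and the E9.5 WT libraries (8, without Hesx1). With each library left out in the last of these fits, where a lone library is taken to vary like the other groups, 60 to 99 genes were called, and 7 of the 9 each time (Hist1h4i and Hesx1 lost). The effect against non-blood cells gave 277 genes with no filter and 212 with 1 sum for each of 19 labels (56 of the 59 kept their sign), and without cells holding non-blood markers 34 of the 59 were still called. The difference from E7.5 Blood progenitors gave 80 genes with no filter. Genes changed between WT stages numbered 271 to 521 with each library left out (271 without E9.5 WT A) and 391 with DESeq2.

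With 2 libraries a genotype, 1 library set the direction of several values. With each left out, the null minus WT difference ran from −3.70 to 1.04 percentage points for the Erythroid share of 3 blood labels (1.04 without null B, and 1.90 with all 7 blood labels as the whole), from −8.67 to 2.53 for the globin share (2.53 without null B, 1.43 without WT A), from −2.30 to 8.0 for the S score (−2.30 without null B, −0.46 without WT A) and from 1.88 to 13.1 for the G2 and M score. tdTomato detection, 69.7% and 37.4% at full depth, was 28.1% and 11.5% after thinning. Why these values changed was not tested, and the cause was not tested for the counts above. The study blocked its abundance and expression tests by embryo pool, but no label ties the libraries of the cells to a pool. The labels thus preferred neither pairing, and no other comparison across genes was blocked by pool. Null A lay nearer to WT A, and null B to WT B, in cells mapped to E9.0 or later (53.5% and 77.7%, 9.16% and 17.5%). So did cells holding non-blood markers (5.39% and 6.10%, 15.3% and 14.6%). Xist in non-blood cells was highest in WT B (121 CPM), then null B (4.73 CPM). The median mitochondrial percent went the other way (null A 1.315, WT B 1.305, null B 1.03, WT A 1.05). What this says of the pools was not tested. The E8.5 Blood progenitor comparison was not run for want of cells.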

Other observations

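Null Erythroid cells of E9.5 were too few for a comparison (19 cells, 460855 UMIs, 14 of them with a tdTomato UMI), and their levels are given as values. Csf2rb stood at 30.4 CPM (14 UMIs), Cd59a at 78.1 CPM (36 UMIs), Plin2 at 282 CPM (130 UMIs) and Pim1 at 208 CPM (96 UMIs), while the E9.5 WT libraries held 24.5 to 52.7, 85.9 to 112, 171 to 275 and 237 to 299 CPM. Krt15 and Akr1e1 had 0 UMIs, against 208 to 465 CPM and 3.39 to 9.93 CPM in the E9.5 WT libraries. Zfp985 was at 10.8 CPM (5 UMIs) and Acss1 at 2.17 CPM (1 UMI), against 1.53 to 2.72 CPM and 21.5 to 31.7 CPM.

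The 17 null Erythroid cells of E7.5 null A (920295 UMIs) held globins at 2.23% of UMIs. Pim1 stood at 102 CPM, Plin2 at 45.6 CPM and Klf1 at 165 CPM in them, and Csf2rb and Krt15 had 0 UMIs.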
